A study of Mus musculus with 10 samples.

Results

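The transcripts of the mouse mitochondrial genome (mtDNA) were taken as all gene entries whose symbol starts with mt-, which gave 37 of the 50600 entries in each deposited table. They comprised 13 protein genes, 2 rRNA genes and 22 tRNA genes. RNA was sequenced from 1 library per mouse in 10 C57BL/6 mice, in spleen tumors of 3 acute myeloid leukemia models and in cKit+ bone marrow cells of WT mice. The Cbfb::MYH11 tumors (libraries 30 and 27) carried the inversion 16 fusion gene, which Mx1-Cre switched on after Poly(I:C) at postnatal day 45. The MLL::AF9 tumors (2, 47 and 42) came from mice heterozygous for the MLL-AF9 allele. The MLL::ENL tumors (NO, RL and L) came from WT progenitors transduced with an MLL::ENL retrovirus and transplanted with WT marrow into irradiated WT mice, so host cells could remain in those spleens. Tumor cells were selected with magnetic beads for cKit, Gr1 or CD11b (Mac1) before RNA extraction from frozen stocks, and WT 1 and WT 2 were selected for cKit. Tumors came from spleen and WT cells from marrow, and the bead selection differed as well, so tissue, cell selection and leukemia cannot be told apart. The question here was how much RNA of the mtDNA each model carried, and whether its genes were represented alike.

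The mtDNA is a small circular genome that is transcribed on both strands into long precursors, from which tRNAs are cut out to release the rRNAs and mRNAs. Its proteins are core subunits of respiratory complexes I, III and IV, which pump protons, and of complex V, the ATP synthase, while complex II and most other subunits come from nuclear genes. Rapidly dividing and differentiating blood cells differ in how much mtDNA and respiration they carry.

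Not every member could be measured alike, and the sequences show why. All 22 tRNA entries, 59 to 75 bases long, had an effective length of 0 and 0 counts in all 10 libraries, which RSEM gives to an entry shorter than the sequenced fragments, so these 0 counts say nothing of tRNA levels. The shortest and the longest are printed here from GENCODE (GRCm38, the build also called mm10), mt-Ts2 from chrM:11613-11671 (plus strand) and mt-Tl1 from chrM:2676-2750 (plus strand).
mt-Ts2: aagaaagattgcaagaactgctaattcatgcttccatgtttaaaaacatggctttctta
mt-Tl1: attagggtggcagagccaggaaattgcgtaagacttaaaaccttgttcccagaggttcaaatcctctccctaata

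The gene for ATP synthase subunit 8, mt-Atp8, runs from 7766 to 7969 on the mtDNA, and its last 43 bases, in capitals, are also the first 43 of mt-Atp6. Its effective length was only 1.93 to 16.1 bases, so its counts moved with the fragment length of the library, and its own TPM and FPKM are not given here.
mt-Atp8: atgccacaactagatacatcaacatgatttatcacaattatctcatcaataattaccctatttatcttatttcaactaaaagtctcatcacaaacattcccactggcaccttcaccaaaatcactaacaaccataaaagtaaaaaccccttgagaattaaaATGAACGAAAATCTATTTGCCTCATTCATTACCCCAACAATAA

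A stretch of chromosome 1, from 24611535 to 24616197 on the minus strand, holds 7 pseudogenes that match mtDNA genes over at least 200 bases at 99% identity or more. Gm28661 matched 681 bases of mt-Co2, Gm28437 matched 783 bases of mt-Co3, Gm10925 matched 678 bases of mt-Atp6, Gm10222 matched 294 bases of mt-Nd4l and Gm28439 matched 876 bases of mt-Nd4, all with 0 mismatches. Gm28438 differed from mt-Nd3 by T3C, and Gm29216 differed from the end of mt-Co1 by A1066T, counted from the first base of the mtDNA gene. The first 60 bases of mt-Co2 (chrM:7013-7072) and Gm28661 (chr1:24615506-24615565), of mt-Nd3 (chrM:9459-9518) and Gm28438 (chr1:24613060-24613119), and 60 bases of mt-Co1 (chrM:6390-6449) and Gm29216 (chr1:24616129-24616188) are given 5′ to 3′ with the differing base in capitals.
mt-Co2: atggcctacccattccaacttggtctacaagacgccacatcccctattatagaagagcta
Gm28661: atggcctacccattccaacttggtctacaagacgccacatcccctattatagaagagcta
mt-Nd3: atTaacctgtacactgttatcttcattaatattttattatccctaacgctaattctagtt
Gm28438: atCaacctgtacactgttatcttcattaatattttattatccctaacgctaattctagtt
mt-Co1: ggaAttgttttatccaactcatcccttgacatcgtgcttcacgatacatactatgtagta
Gm29216: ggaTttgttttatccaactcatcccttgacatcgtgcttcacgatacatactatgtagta

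The authors' quantification split the reads of such pairs between the mtDNA gene and its copy. In the 8 tumors Gm28661 held 47.1% to 77.6% of the counts of its pair with mt-Co2, against 34.1% in WT 1 and 62.8% in WT 2. Gm28437 held 49.8% to 60.3% of its pair with mt-Co3 in the tumors, against 40.9% in WT 1 and 55.1% in WT 2. Gm10925 held 43.3% to 63.6% of its pair with mt-Atp6 in the tumors, against 22.05% in WT 1 and 16.6% in WT 2, so here the split itself differed between the groups. Gm10222 held 44.8% to 74.9% of its pair with mt-Nd4l in the tumors, against 55.4% in WT 1 and 67.9% in WT 2. The other copies took less, at most 18.2% of a pair for Gm29216, 14.7% for Gm28438 and 0.235% for Gm28439. The chromosome 2 pseudogenes Gm13340 (97.6% identical to mt-Co1, 3 to 1156 counts per library) and Gm13341 (95.9% identical to mt-Co2, 2 to 184.8 counts), and Cep295, a centrosome protein gene whose transcript matched 491 bases of mt-Co1 at 77.4% identity, fell below the limit for a near-identical copy and were not summed. Levels of mt-Co2, mt-Co3, mt-Atp6 and mt-Nd4l, whose copies took the most, are therefore given both alone and summed with the copy. For the other pairs the log2 fold change over the 3 models against WT, from edgeR, was 2.99 alone and 2.93 summed for mt-Co1, 1.14 and 1.19 for mt-Nd3, and 2.38 and 2.39 for mt-Nd4. Whether any read came from chromosome 1 was not tested.

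The mtDNA share of all expected counts was higher in all 8 tumors than in both WT libraries. It was 6.93% in Cbfb::MYH11 30 and 3.51% in Cbfb::MYH11 27. Among the MLL::AF9 tumors it was 10.2% in 2, 2.59% in 47 and 2.23% in 42. MLL::AF9 47 and 42 thus lay below both Cbfb::MYH11 tumors. Among the MLL::ENL tumors it was 10.6% in NO, 3.93% in RL and 5.15% in L. The WT libraries had 0.766% (WT 1) and 1.32% (WT 2). The 2 highest values, MLL::ENL NO and MLL::AF9 2, belonged to different models, and the lowest tumor, MLL::AF9 42, was still above WT 2. The mean was 5.65% ± 3.30 (SD, n = 8) in the tumors and 1.04% ± 0.389 (SD, n = 2) in WT cells, a ratio of 5.42. An exact two-sided permutation test gave p = 0.0444, the smallest that 8 against 2 libraries allow. Adjusted over the 6 comparisons made for this measure it was 0.266. With so few libraries the adjusted value could not fall below 0.05 even with all groups fully separated, so it decides nothing here. The difference of 4.605 percentage points was 8.17 on the deposited TPM, which divide by effective length and include mt-Atp8. The libraries held 12134917 to 20510574 counts, which leaves a 95% Wilson interval of at most 0.0347 percentage points around each share, for counting error only. The spread between mice was far wider than that.

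**Figure D1:**
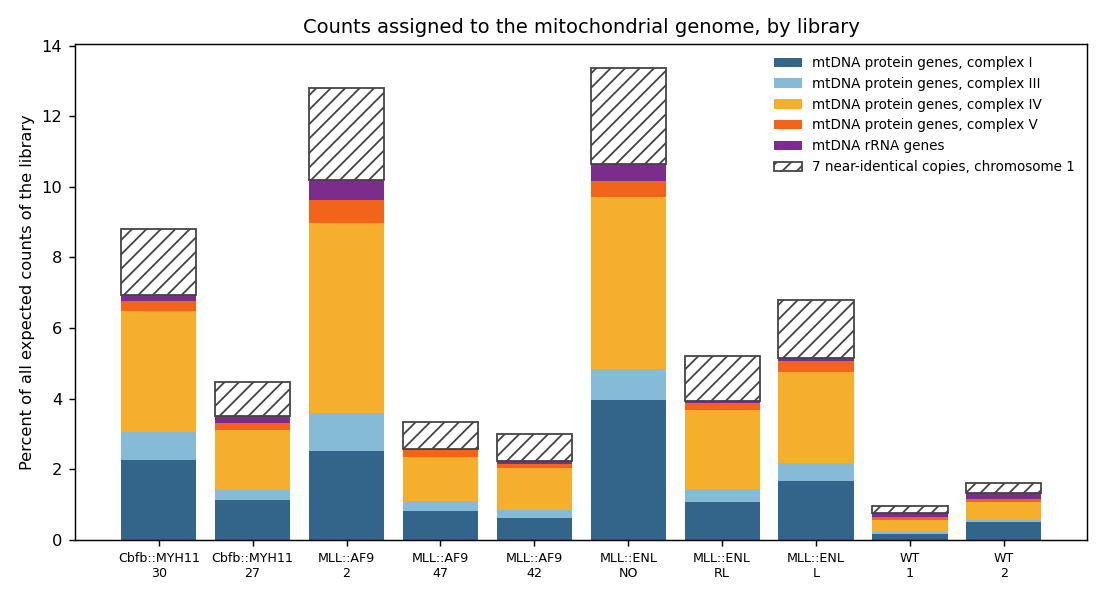
Percent of all expected counts of each library assigned to mtDNA genes, stacked by respiratory complex and rRNA, with the chromosome 1 copies hatched on top; the tumors stand left of the WT libraries. The mtDNA part lies between 2.23% and 10.6% in the tumors, above 1.32% and 0.766% in the WT libraries.

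By model the mean share was 5.22% ± 2.42 (SD, n = 2) in Cbfb::MYH11 tumors, 5.01% ± 4.499 (SD, n = 3) in MLL::AF9 tumors and 6.57% ± 3.58 (SD, n = 3) in MLL::ENL tumors. No model overlapped WT, but 3 against 2 libraries cannot go below an exact p of 0.2, nor 2 against 2 below 0.333, and these were the values obtained. The means rested on single mice: the difference from WT was 4.18 percentage points in Cbfb::MYH11 tumors and 2.47 without Cbfb::MYH11 30, and 3.96 in MLL::AF9 tumors and 1.37 without MLL::AF9 2. For MLL::ENL tumors it was 5.53, and 3.49 without MLL::ENL NO. With the chromosome 1 copies added the share was 2.99% to 13.4% in the tumors, against 0.956% in WT 1 and 1.62% in WT 2. The copies alone took 0.747% to 2.74% of the counts in the tumors and 0.189% and 0.304% in WT 1 and WT 2.

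Fragment length split the libraries into a class of 199 to 224 bases and a class of 262 to 272 bases, and every condition had libraries in both. In the short class the share was 2.59% to 10.6% in 5 tumors and 0.766% in WT 1. In the long class it was 2.23% to 6.93% in 3 tumors and 1.32% in WT 2. The tumors were thus above WT within each class, with 1 WT library in each and no test possible below 0.05.

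Among the marker lists for other cells, the sums for red cell precursors and eosinophils separated the tumors from WT, and the other sums overlapped. The summed level of 11 red cell precursor markers, in TMM-scaled counts per library total (CPM), was 32.5 to 13095 in the tumors, against 210271 in WT 1 and 44475 in WT 2. With the 4 hemoglobin genes, S100a8 and S100a9 left out of the total, the mtDNA share was 2.30% to 11.1% in the tumors and 0.953% and 1.43% in WT 1 and WT 2, so the groups still did not overlap. The summed level of 10 neutrophil markers was highest among the tumors in MLL::AF9 2 (164244 CPM) and MLL::ENL NO (67716 CPM), the libraries with the highest mtDNA share, but it was also high in WT 1 (139509 CPM) and WT 2 (82112 CPM), which had the lowest. The 9 eosinophil markers summed to 15.9 to 115 CPM in the tumors and to 20585 and 8231 CPM in WT 1 and WT 2. Sums of 10 B cell markers (243 to 5834 CPM in the tumors, 4996 and 1505 CPM in WT), 9 T and NK cell markers (5.64 to 369 CPM, against 230 and 197 CPM in WT) and 8 tissue macrophage markers (185 to 423 CPM, against 457 and 411 CPM in WT) overlapped between the groups. No marker of these lists was at 0 in all libraries. Neutrophil markers may also be RNA of the tumor cells themselves, which were selected for cKit, Gr1 or CD11b. The part of other cells in the mtDNA share was not tested.

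Of the 37 entries 15 passed the filter on low counts, namely the 13 protein genes and both rRNA genes. In edgeR's quasi-likelihood fit over 14875 genes none of the 13 protein genes passed an adjusted p of 0.05 in any model against WT, although the log2 fold change was positive for 13 of 13 in each model. Of all genes tested, 0.612% were called higher over the 3 models together, 3.54% in Cbfb::MYH11, 0.78% in MLL::AF9 tumors and 0.578% in MLL::ENL tumors. At an unadjusted p under 0.05 the 13 genes gave 8 over the 3 models, 5 in Cbfb::MYH11, 5 in MLL::AF9 tumors and 8 in MLL::ENL tumors, all higher. How many of all genes tested had an unadjusted p under 0.05 was not counted. These unadjusted counts, and those below for other lists, thus have no background share beside them. The median log2 fold change of the 13 genes was 2.26 over the models, 2.19 in Cbfb::MYH11, 2.13 in MLL::AF9 tumors and 2.61 in MLL::ENL tumors, beside -0.03, -0.01, 0.08 and 0.02 for all genes tested. Single libraries moved these medians: that of MLL::AF9 tumors was 0.74 without MLL::AF9 2, that of MLL::ENL tumors 1.75 without MLL::ENL NO and that of Cbfb::MYH11 tumors 1.56 without Cbfb::MYH11 30. Without WT 2 they were higher, at 2.87 over the models, 2.91 in Cbfb::MYH11, 2.81 in MLL::AF9 tumors and 3.32 in MLL::ENL tumors. Other tools disagreed on the calls: DESeq2 called 8 genes higher over the models, 3 in Cbfb::MYH11, 5 in MLL::AF9 tumors and 8 in MLL::ENL tumors, and limma-voom called 2, 0, 0 and 1. Except in Cbfb::MYH11 tumors, the DESeq2 calls included mt-Atp8, whose counts moved with the fragment length. DESeq2 also called more genes of any kind higher, 5.43% of those given an adjusted p over the models, 7.97% in Cbfb::MYH11, 8.15% in MLL::AF9 tumors and 6.26% in MLL::ENL tumors, and limma-voom called 0.672%, 4.58%, 0.995% and 0.982% higher. By level alone, all 8 tumors lay above both WT libraries for 9 of the 13 genes, and for 11 once the copies were added, while 5.5% of all genes tested did so and 6.12% lay below.

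**Figure D2:**
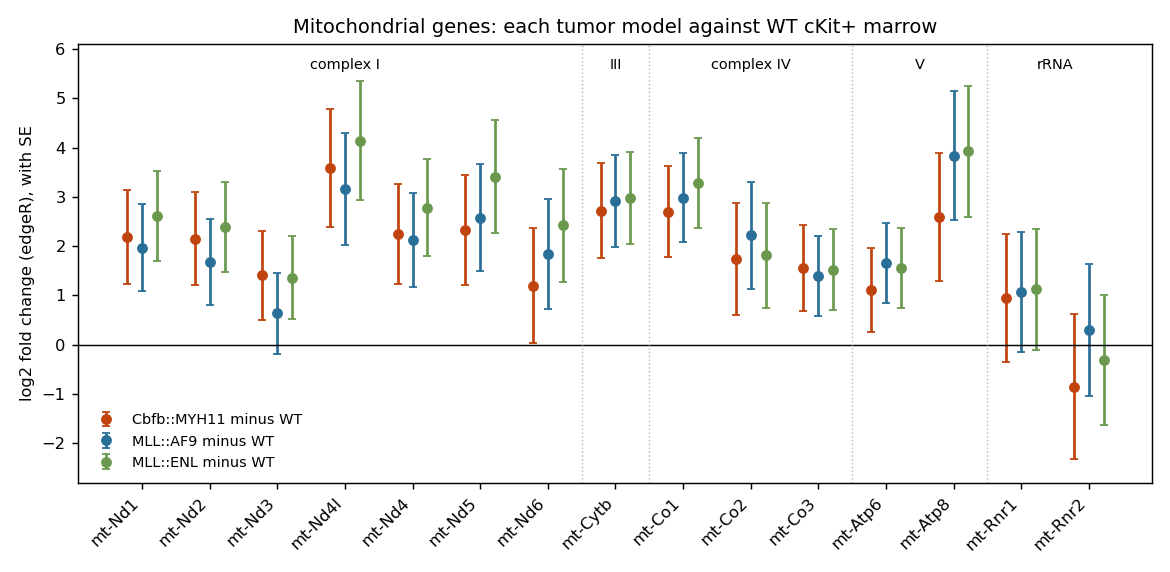
edgeR log2 fold change of the 13 protein genes and both rRNA genes in each tumor model against WT cKit+ marrow, with bars for 1 standard error, ordered by respiratory complex. All protein gene values lie above 0, between 0.64 and 4.14, while mt-Rnr2 lies on both sides of 0.

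In complex I, the NADH dehydrogenase, the mtDNA encodes 7 membrane subunits. mt-Nd1 (chrM 2751 to 3707) stood at 6453 and 4168 CPM in Cbfb::MYH11 tumors, 9742, 2128 and 1781 CPM in MLL::AF9 tumors and 13321, 3377 and 4578 CPM in MLL::ENL tumors, against 679 and 1641 CPM in WT cells. All 8 tumors were above WT, the lowest by little, and the log2 fold change over the models was 2.26 (SE 0.85, adjusted p = 0.15 from edgeR). mt-Nd2 (3914 to 4951), mt-Nd4 (10167 to 11544), mt-Nd5 (11742 to 13565) and mt-Nd4l (9877 to 10173) likewise had all 8 tumors above WT, and edgeR log2 fold changes of 2.07 for mt-Nd2, 2.38 for mt-Nd4, 2.77 for mt-Nd5 and 3.62 for mt-Nd4l (adjusted p = 0.18, 0.16, 0.15 and 0.1). WT 1 was the low library for these genes: mt-Nd5 had 1070 to 10280 CPM in the tumors, against 165 CPM in WT 1 and 760 CPM in WT 2. mt-Nd4l had 43.6 to 789.6 CPM in the tumors, against 15.4 and 26.7 CPM in WT cells. Summed with Gm10222 it had 174 to 1529 CPM in the tumors, against 34.6 and 83.3 CPM in WT cells, and edgeR gave 3.36 for the summed log2 fold change (SE 1.0, adjusted p = 0.092).

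The remaining complex I genes overlapped WT. mt-Nd3 (9459 to 9806) had 419 to 3524 CPM in the tumors, against 827 and 559 CPM in WT cells, and only 5 of 8 tumors were above both. Its log2 fold change of 1.14 (SE 0.76, adjusted p = 0.41 from edgeR) was the smallest of the 13. mt-Nd6 (13552 to 14070), the only protein gene on the minus strand, had 128 to 1667 CPM in the tumors, against 72.7 and 211 CPM in WT cells, with 6 of 8 above both. Its last 14 bases overlap the end of mt-Nd5 on the other strand, and the strand setting of the counting was not given in the sources used here, so reads over the overlap are uncertain.

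mt-Cytb (14145 to 15288) encodes cytochrome b, the only mtDNA subunit of complex III. It stood at 6910 and 2835 CPM in Cbfb::MYH11 tumors, 12439, 2411 and 1905 CPM in MLL::AF9 tumors and 9916, 3176 and 4291 CPM in MLL::ENL tumors, against 610 and 868 CPM in WT cells. Even the lowest tumor was above both WT libraries, which differed little from each other. The log2 fold change was 2.87 (SE 0.88, adjusted p = 0.096 from edgeR), and no near-identical copy was found for this gene.

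Complex IV, cytochrome c oxidase, takes its 3 core subunits from the mtDNA. mt-Co1 (5328 to 6872), which holds the site of oxygen reduction, stood at 22572 and 10764 CPM in Cbfb::MYH11 tumors, 44167, 7750 and 8523 CPM in MLL::AF9 tumors and 41656, 15512 and 17367 CPM in MLL::ENL tumors, against 1989 and 3129 CPM in WT cells. It ranked first among all entries by count in Cbfb::MYH11 30 and all 3 MLL::ENL tumors, second in Cbfb::MYH11 27, MLL::AF9 2 and MLL::AF9 47 and 5 in MLL::AF9 42, against 95 in WT 1 and 23 in WT 2. Its log2 fold change over the models was 2.99 (SE 0.86), which had the smallest adjusted p of the 13 genes (0.082 from edgeR). It ranged from 2.70 in Cbfb::MYH11 to 3.28 in MLL::ENL tumors.

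mt-Co2 (7013 to 7696), which accepts electrons from cytochrome c, had 1013 to 10236 CPM in the tumors and 852 and 911 CPM in WT cells. Summed with Gm28661 it had 3337 to 20290 CPM in the tumors and 1292 and 2449 CPM in WT cells, and its log2 fold change was 2.26 summed, against 1.92 alone. mt-Co3 (8607 to 9390) had 1501 to 8626 CPM in the tumors, against 2013 and 971 CPM in WT cells, so 2 tumors lay below WT 1. Summed with Gm28437 it had 3527 to 18093 CPM in the tumors, against 3403 and 2161 CPM in WT cells, and the groups no longer overlapped. Its log2 fold change was 1.49 alone and 1.71 summed, and none of these values passed.

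Complex V, the ATP synthase, has 2 mtDNA subunits. mt-Atp6 (7927 to 8607), part of the proton channel, had 968 to 7164 CPM in the tumors, against 1222 and 840 CPM in WT cells, with 7 of 8 above both. Summed with Gm10925 it had 2659 to 12645 CPM in the tumors, against 1567 and 1007 CPM in WT cells, and edgeR gave a log2 fold change of 2.14 summed (SE 0.7, adjusted p = 0.11) and 1.44 alone. mt-Atp8 had 37.5 to 511 CPM in the tumors, against 24.5 and 8.30 CPM in WT cells. In both groups the libraries of short fragments had the higher mt-Atp8 counts.

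Per length, the order of the genes depended on the copies. Among the 10 genes with an effective length over 150 bases in every library, mt-Co1 had the highest deposited FPKM in 8 of 8 tumors, with a mean of 15878 FPKM, ahead of mt-Nd1 (7768 FPKM) and mt-Co3 (7490 FPKM), and mt-Nd6 had the lowest mean (1824 FPKM). In WT cells mt-Co1 was highest in 1 of 2 libraries and mt-Co3 in the other. With the counts of the copies added, mt-Co2 was highest in 7 of 8 tumors and 1 of 2 WT libraries, mt-Co3 in the others, and mt-Co1 in none.

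The make-up of the 13-gene counts does not depend on the library total. mt-Co1 made up 32.5% to 45.9% of it in the tumors, against 21.8% in WT 1 and 26.6% in WT 2. mt-Cytb made up 8.57% to 11.3% in the tumors, against 6.69% and 7.37% in WT cells. For both, all tumors lay above WT, also with the copies added, and the exact two-sided permutation p was 0.0444, the smallest the split allows. Adjusted over the 13 genes it was 0.231, and no gene passed. With this smallest p a gene could pass only if nearly all of the 13 reached it, so the adjusted values decide little here.

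mt-Co3, mt-Atp6 and mt-Nd3 had larger shares in WT 1 (22.1%, 13.4% and 9.08%) than in any tumor, but in WT 2 mt-Co3 (8.25%), mt-Atp6 (7.14%) and mt-Nd3 (4.75%) lay within the tumors' range. The WT libraries differed from each other for complex I as a whole. WT 1, at 26.4%, lay at the low end of the tumors' range of 26.3% to 38.8%, and WT 2, at 42.8%, lay above it. Complex IV genes made up 52.4% ± 3.62 (SD, n = 8) in the tumors and 47.9% ± 7.55 (SD, n = 2) in WT cells, with an exact p of 0.267. With the copies added the complex IV shares were closer, 58.2% ± 2.79 (SD, n = 8) in the tumors and 56.8% ± 5.15 (SD, n = 2) in WT cells (exact p = 0.578).

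**Figure D3:**
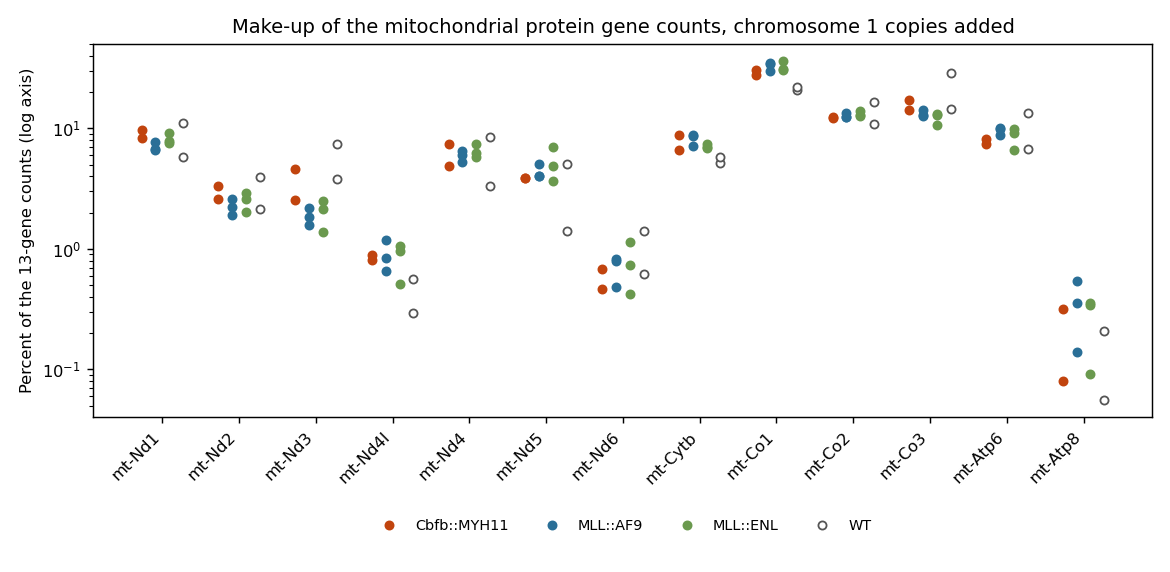
Share of each protein gene in the 13-gene counts of a library, on a log axis, with the chromosome 1 copies added to their mtDNA gene; points are libraries, filled for tumors and open for WT. The mt-Co1 share lies between 27.8% and 36.3% in the tumors and at 20.6% and 22.2% in WT 1 and WT 2.

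The rRNA genes did not follow the protein genes. mt-Rnr1 (70 to 1024), the 12S rRNA of the small mitochondrial ribosomal subunit, had 833 and 1108 CPM in Cbfb::MYH11 tumors, 2674, 151 and 379 CPM in MLL::AF9 tumors and 2628, 308 and 370 CPM in MLL::ENL tumors, against 453 and 561 CPM in WT cells. mt-Rnr2 (1094 to 2675), the 16S rRNA of the large subunit, had 566 and 848 CPM in Cbfb::MYH11 tumors, 4082, 142 and 431 CPM in MLL::AF9 tumors and 2574, 195 and 320 CPM in MLL::ENL tumors, against 1302 and 1244 CPM in WT cells. Both genes lay on either side of WT among the tumors, 4 above and 4 below for mt-Rnr1 and 2 above and 6 below for mt-Rnr2. Over the models edgeR gave log2 fold changes of 1.04 (SE 1.1, adjusted p = 0.62) for mt-Rnr1 and -0.29 (SE 1.14, adjusted p = 0.92) for mt-Rnr2.

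Relative to the protein genes the rRNA counts were lower in every tumor. Per 100 protein gene counts there were 2.30 and 5.91 rRNA counts in Cbfb::MYH11 tumors, 5.99, 1.37 and 4.09 in MLL::AF9 tumors and 4.54, 1.49 and 1.58 in MLL::ENL tumors, against 19.3 in WT 1 and 15.3 in WT 2. The mean was 3.41 ± 1.97 (SD, n = 8) in the tumors and 17.3 ± 2.77 (SD, n = 2) in WT cells. The exact two-sided permutation p was 0.0444, again the smallest possible. Adjusted over 6 comparisons it was 0.266, which could not fall below 0.05 with these numbers of libraries. The protein gene counts in the denominator already separated the groups, so this ratio is not independent of the mtDNA share. The ratio of mt-Rnr1 to mt-Rnr2 counts was 0.655 to 1.58 in the tumors and 0.348 and 0.451 in WT 1 and WT 2, also without overlap (exact p = 0.0444, 0.257 adjusted under the same limit). Neither ratio was planned before the data were seen. Both ratios separated the groups within the fragment classes as well, with 1.37 to 5.99 against 19.3 rRNA counts per 100 in the short class and 1.49 to 4.09 against 15.3 in the long class. Whether the libraries were made by poly(A) selection or rRNA depletion was not given in the sources used here, so how far the rRNA counts follow rRNA levels was not tested.

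**Figure D4:**
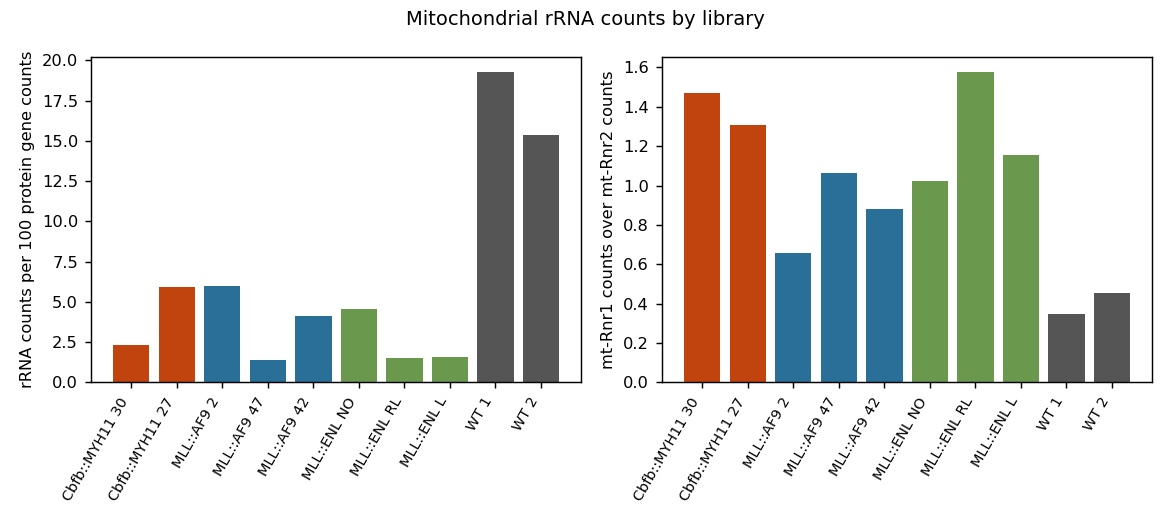
Mitochondrial rRNA counts per 100 protein gene counts (left) and mt-Rnr1 counts over mt-Rnr2 counts (right) in each library, tumors left of WT. The tumors reach at most 5.99 on the left, below 15.3 in WT 2, and at least 0.655 on the right, above 0.451 in WT 2.

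Between the leukemia models no difference of the mtDNA genes passed a test, and the mice varied widely. The highest tumor exceeded the lowest by 5.70-fold for mt-Co1 and by 18.1-fold for mt-Nd4l, the ends of the range over the 13 genes taken alone. With the copies added the ends were 4.76-fold for mt-Atp6 and 13.6-fold for mt-Atp8, and mt-Nd4l stood at 8.78-fold. The mean mtDNA share was 5.79% ± 3.74 (SD, n = 6) in the MLL tumors and 5.22% ± 2.42 (SD, n = 2) in Cbfb::MYH11 tumors, an exact two-sided permutation p of 0.929 where 0.0714 was the smallest possible. In MLL against Cbfb::MYH11 tumors 0 of the 13 genes passed in edgeR, DESeq2 or limma-voom and 0 had an unadjusted p under 0.05, while edgeR called 13.2% of all genes higher and 12.5% lower, DESeq2 19.2% and 15.2%, and limma-voom 10.6% and 13.5%. The log2 fold changes lay between -0.41 and 1.28 with standard errors of 0.69 to 1.07. In MLL::ENL against MLL::AF9 tumors 0 of 13 passed in any of the 3 tools and 0 had an unadjusted p under 0.05, with log2 fold changes between -0.42 and 0.98, beside 0.0% of all genes called higher and 0.0134% lower by edgeR, 0.699% and 2.77% by DESeq2, and 0.0% in both directions by limma-voom. The mean share was 6.57% in MLL::ENL tumors and 5.01% in MLL::AF9 tumors (exact p = 0.5, smallest possible 0.1).

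The nuclear genes of the respiratory complexes did not share the direction of the mtDNA genes. Of 79 such genes, all of which passed the filter, 0 were called higher over the models by edgeR, DESeq2 or limma-voom. By edgeR 2 were called lower, beside 3.19% of all genes, and 40 had an unadjusted p under 0.05, for which the share of all genes was not counted. DESeq2 called 9 lower, beside 6.14%, and limma-voom 2, beside 4.73%. The median log2 fold change was -0.64 over the models, -0.45 in Cbfb::MYH11, -0.89 in MLL::AF9 tumors and -0.59 in MLL::ENL tumors, and the sign was positive for 1, 12, 0 and 4 of the 79. Their summed level was 14155 and 16678 CPM in Cbfb::MYH11 tumors, 11477, 8946 and 8988 CPM in MLL::AF9 tumors and 12230, 11147 and 11151 CPM in MLL::ENL tumors, against 23620 and 13319 CPM in WT cells. WT 2 thus lay within the range of the tumors, and WT 1, which also had the highest red cell precursor markers, was above all of them.

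In Cbfb::MYH11 tumors 0 of the 79 were called in either direction by edgeR (6.88% of all genes were called lower), with 7 at an unadjusted p under 0.05, 1 called lower by DESeq2 (11.6% of all genes) and 0 by limma-voom (6.04%). In MLL::AF9 tumors edgeR called 6 lower, beside 2.03% of all genes, DESeq2 21, beside 6.53%, and limma-voom 8, beside 3.8%. In MLL::ENL tumors edgeR called 1 lower, beside 1.56%, DESeq2 9, beside 6.04%, and limma-voom 1, beside 3.31%. Ndufv1, which carries the NADH binding site of complex I, fell to 68.8, 71.4 and 82.9 CPM in MLL::AF9 tumors and to 97.2, 91.8 and 89.3 CPM in MLL::ENL tumors, against 265 and 205 CPM in WT cells, and edgeR gave log2 fold changes of -1.66 (adjusted p = 0.017) and -1.34 (adjusted p = 0.036). The other genes called lower in MLL::AF9 tumors were the complex I subunits Ndufa9 (log2 fold change -1.19) and Ndufa5 (-1.42), Cyc1, the cytochrome c1 of complex III (-1.14), Atp5o, a stalk subunit of complex V (-1.34), and Atpif1, an inhibitor of complex V (-1.90), with adjusted p of 0.026 to 0.042 from edgeR. Over the models the called genes were Ndufv1 (-1.13, adjusted p = 0.026 by edgeR) and Atp5o (-0.94, adjusted p = 0.044 by edgeR). Neither was called in Cbfb::MYH11 tumors, with -0.38 for Ndufv1 and -0.62 for Atp5o (edgeR adjusted p of 0.43 and 0.19). For Ndufv1, Cbfb::MYH11 30 had 137 CPM, and Cbfb::MYH11 27, at 223 CPM, lay above WT 2. With library totals in place of TMM scaling, 0 of the 79 were called lower over the models, in MLL::AF9 tumors or in MLL::ENL tumors, and a fit of only the MLL::AF9 and WT libraries also called 0. The calls rested on few libraries as well: without WT 1, 0 of the 79 were called lower in MLL::AF9 or MLL::ENL tumors, without WT 2, MLL::ENL RL or either of MLL::AF9 47 and 42, 1 to 3 were called lower in MLL::AF9 tumors, and without MLL::AF9 42 or any 1 MLL::ENL library, 0 were called lower in MLL::ENL tumors. Over the models the count was 0 to 1 without WT 1, WT 2, either Cbfb::MYH11 library, MLL::AF9 47 or 42, or MLL::ENL RL or L, and 7 without MLL::AF9 2. In Cbfb::MYH11 tumors it was 3 without WT 2.

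**Figure D5:**
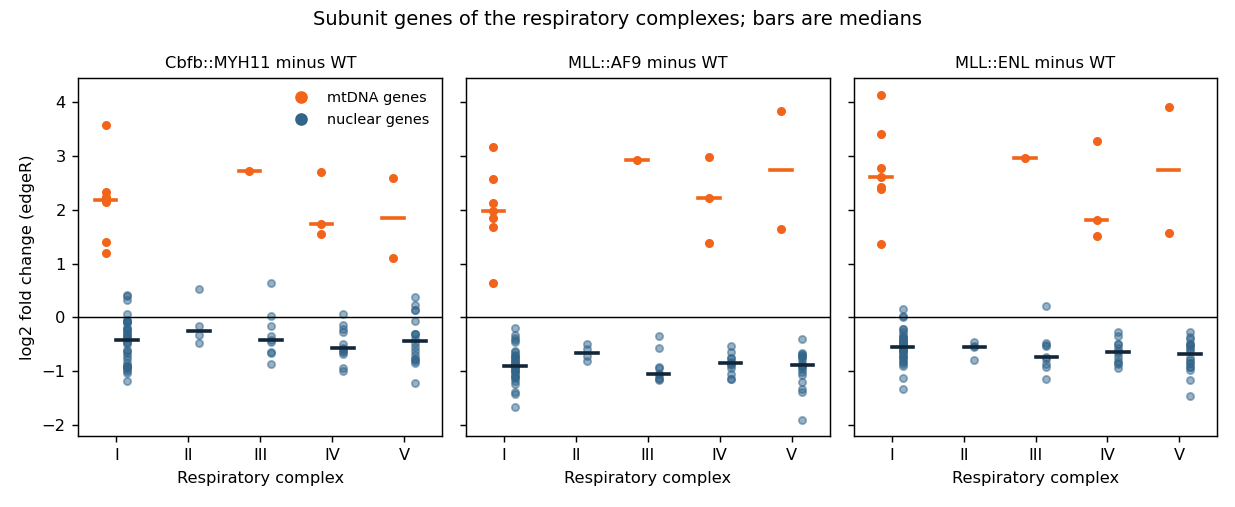
edgeR log2 fold change of each listed gene by respiratory complex in the 3 tumor models against WT. The mtDNA genes are left and the nuclear genes right, with a bar at each median. The complex V list includes the inhibitor Atpif1, and complex II has no mtDNA gene. The mtDNA genes lie above 0 in all panels, while the medians of the nuclear genes lie between -1.05 and -0.25.

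Between MLL and Cbfb::MYH11 tumors some nuclear genes differed. Of the 79, 13 were called lower in MLL tumors and 0 higher, with a median log2 fold change of -0.34 beside 0.08 for all genes. The share called lower was 16.5%, near the 12.5% of all genes. Atpif1 had 101 to 175 CPM in the 6 MLL tumors, against 385 and 471 CPM in Cbfb::MYH11 tumors and 553 and 228 CPM in WT cells. For MLL against Cbfb::MYH11 tumors edgeR gave Atpif1 a log2 fold change of -1.82 (adjusted p = 0.0019). The genes with the smallest adjusted p of each complex were Ndufs1 (-1.07), Ndufv1 (-1.12) and Ndufa9 (-0.90) in complex I, Sdha (-1.0), the flavoprotein of complex II, Uqcrc2 (-1.17) and Cyc1 (-1.06) in complex III, Cox7a2l (-1.07), linked to supercomplexes of III and IV, and Atp5a1 (-1.23) and Atp5b (-1.23), the alpha and beta subunits of complex V. In Cbfb::MYH11 tumors against WT the log2 fold change was 0.33 for Ndufs1, 0.52 for Sdha, 0.64 for Uqcrc2, 0.37 for Atp5a1 and 0.23 for Atp5b. It was 0.07 for Cox7a2l, 0.03 for Cyc1, -0.11 for Ndufa9 and -0.38 for Ndufv1, and edgeR called none of these. The count of 13 called lower in MLL against Cbfb::MYH11 tumors was 1 without Cbfb::MYH11 27.

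Among genes that replicate, transcribe or process the mtDNA, edgeR called 1 against WT. Of 11 genes of mtDNA replication and packaging, edgeR called 0 over the models or in any model, with 0 at an unadjusted p under 0.05 over the models, 3 in Cbfb::MYH11, 1 in MLL::AF9 tumors and 1 in MLL::ENL tumors, and DESeq2 called 1 lower in MLL::ENL tumors and limma-voom 0. Of 9 genes of mitochondrial transcription edgeR, DESeq2 and limma-voom called 0, with 1 at an unadjusted p under 0.05 by edgeR, in Cbfb::MYH11 tumors. The shares of all genes called lower by edgeR, given above, were 1.56% to 6.88%. Of 31 genes of RNA processing and stability edgeR called 1 (3.23%), lower in MLL::AF9 tumors, where 2.03% of all genes were, with 3 at an unadjusted p under 0.05 over the models, 3 in Cbfb::MYH11, 4 in MLL::AF9 tumors and 3 in MLL::ENL tumors. For these 31 genes DESeq2 called 2 lower over the models, 1 higher in Cbfb::MYH11, 1 lower in MLL::AF9 tumors and 2 lower in MLL::ENL tumors, and limma-voom called 1 lower in each of these comparisons but that with Cbfb::MYH11 tumors, where it called 0. Polrmt, the mitochondrial RNA polymerase, had 32.5 and 37.4 CPM in Cbfb::MYH11 tumors, 13.8, 23.99 and 25.5 CPM in MLL::AF9 tumors and 10.3, 24.6 and 29.9 CPM in MLL::ENL tumors, against 14.3 and 18.7 CPM in WT cells. The lowest Polrmt levels among the tumors were in MLL::ENL NO and MLL::AF9 2, the tumors with the highest mtDNA shares. This order was not particular to Polrmt. The same tumors were also lowest for Tfb2m (16.3 and 11.1 CPM) and Lrpprc (29.0 and 26.2 CPM), but not for Tfam or Slirp. A link of these levels to the mtDNA share was not tested. The packaging and transcription factor Tfam and the transcription factor Tfb2m had log2 fold changes over the models of -0.44 and 0.13, with edgeR adjusted p of 0.27 and 0.83. Lrpprc and Slirp, which together stabilize mitochondrial mRNAs, had -0.06 and -0.53, with edgeR adjusted p of 0.94 and 0.32. Fastkd2, which in human cells takes part in 16S rRNA maturation, was called lower in MLL::AF9 tumors, at 7.93 ± 1.98 CPM (SD, n = 3) against 26.5 ± 2.19 CPM (SD, n = 2) in WT cells (log2 fold change -1.74, edgeR adjusted p of 0.044). This call was kept without MLL::ENL NO or RL, and was lost on leaving out each of the other libraries in turn. With all libraries kept it was also lost with library totals in place of TMM, the effective length offset or fragment class as a term, and it was lost in a fit of only the MLL::AF9 and WT libraries.

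In MLL against Cbfb::MYH11 tumors 10 of the 31 RNA processing genes were called lower and 0 higher, with a median log2 fold change of -0.68 beside 0.08 for all genes. That was 32.3% of the list, beside 12.5% of all genes called lower and 13.2% higher. Lrpprc fell to 26.2, 55.7 and 39.7 CPM in MLL::AF9 tumors and to 29.0, 47.7 and 45.2 CPM in MLL::ENL tumors, against 119.7 and 124 CPM in Cbfb::MYH11 tumors, and edgeR gave a log2 fold change of -1.59 (adjusted p = 0.0046). The RNA processing gene Fastkd2 (-1.60) and the exoribonuclease Rexo2 (-1.53) followed by adjusted p. For Slirp the log2 fold change was -0.14, with an edgeR adjusted p of 0.79. Of the 11 replication and packaging genes 2 were called lower, Twnk, the mtDNA helicase (-1.66), and Tfam (-0.90), with adjusted p of 0.0049 and 0.015 from edgeR, and the median of the list was 0.01. Of 7 regulators of mitochondrial biogenesis 6 passed the filter, and 2 of these were called lower, the coactivators Pprc1 (-1.31) and Ppargc1b (-2.19), with adjusted p of 0.037 and 0.043 from edgeR. The other regulators, the transcription factors Nrf1 (0.01), Gabpa (0.04), Gabpb1 (-0.09) and Esrra (0.35), were not called, and the median of the tested regulators was -0.04. In Cbfb::MYH11 tumors against WT the log2 fold change was 0.99 for Lrpprc, 0.77 for Rexo2, -0.02 for Fastkd2, 0.95 for Twnk and 0.16 for Tfam. It was 1.13 for Pprc1 and 1.9 for Ppargc1b, and edgeR called none of these. Against WT, edgeR, DESeq2 and limma-voom called 0 of the regulators over the models or in any model, with 1 at an unadjusted p under 0.05 by edgeR over the models and 1 in MLL::ENL tumors. The mtDNA protein genes themselves had a median log2 fold change of 0.22 in MLL against Cbfb::MYH11 tumors. The count of 10 was 3 with library totals in place of TMM, 5 without the filter on low counts, 3 without Cbfb::MYH11 30, 2 without Cbfb::MYH11 27 and 6 without MLL::AF9 42, MLL::ENL RL or MLL::ENL L.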

How the data were processed

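The authors aligned reads with STAR to the mouse genome (mm10) and quantified genes with RSEM (FastQC is also named in the submitters' processing notes); versions, library selection and strand setting were not given in the sources used here. The deposited tables hold expected counts, TPM and FPKM, with length and effective length, for 50600 gene entries per library. Expected counts are RSEM's estimates, which split reads shared by several genes; the authors' TPM and FPKM are divided by effective length and are unreliable for genes shorter than the fragments.

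Expected counts were rounded, filtered (filterByExpr by condition), scaled by TMM and tested with edgeR 4.0.16 (quasi-likelihood F-test, robust, 1 mean per condition, all 10 libraries, 14875 genes, Benjamini-Hochberg, called under 0.05; 6 residual degrees of freedom). The main fit had no covariates, and sex, which was not given for every library, was not modeled. DESeq2 1.42.0 and limma 3.58.1 were run as alternatives. Shares and ratios per library were compared by exact two-sided permutation tests. Copies of mtDNA genes were found with BLAST 2.17.0 in GENCODE transcripts (GRCm38). Fragment length was the median of length minus effective length over genes longer than 3000 bases, and the classes were divided at 240 bases. The edgeR code was tested on simulated data.

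The text names all protein and rRNA genes of the mtDNA; copies with a condition mean of at least 10 counts; of each nuclear list at most 3 called genes per comparison by adjusted p; and Polrmt, Tfam, Tfb2m, Lrpprc and Slirp in any case. Of the listed nuclear genes of complex I, 36 of 37 were matched by symbol; the other lists matched in full. The members and lists were chosen with earlier results of these data known. The labels and table names interchange MLL::AF9 42 and 47, whose condition is certain. Each library is a separate mouse by its label.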

Additional observations from a re-analysis of the deposited data

Results flagged for a closer look

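The 7 chromosome 1 entries that are near-identical to mtDNA genes lie outside the mitochondrial entries, and their summed share of counts was higher in all 8 tumors than in both WT libraries. Gm28438 alone overlapped WT, with 3 of 8 tumors above both WT libraries and 1 below both. They took 1.58% of all counts on average in the tumors and 0.246% in WT cells (exact two-sided permutation p = 0.0444 with 8 against 2 libraries, 0.266 adjusted over 6 comparisons). With these numbers of libraries the adjusted value could not fall below 0.05. They made up 21.2% to 25.9% of the summed counts of the protein genes and copies in the tumors, and 22.8% and 21.01% in WT 1 and WT 2. Because the quantification split the reads of each pair between the mtDNA gene and its copy, this result is not independent of the mtDNA share. It adds no separate support to it. In 38 tests of whether the highest or lowest library stood far from the rest, over 19 measures in the 6 MLL tumors and in all 8 tumors, 0 passed the limit, which chance passes in about 1 of 20.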

How the results depend on the processing

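The number of the 13 protein genes called was 0 in edgeR for each comparison with WT. Over the models it became 8 with DESeq2, 2 with limma-voom and 1 with effective length as an offset. In Cbfb::MYH11 tumors it became 3 with DESeq2 or with library totals in place of TMM, 8 with only the libraries of the comparison and 1 with the length offset. In MLL::AF9 tumors it became 5 with DESeq2, and in MLL::ENL tumors 8 with DESeq2, 2 with only the libraries of the comparison, and 1 with limma-voom or the length offset. The gene called with the length offset was mt-Atp8 each time, whose effective length of 1.93 to 16.1 bases makes its counts uncertain. It was also among the DESeq2 calls, except in Cbfb::MYH11 tumors. Leaving out 1 library gave 0 to 2 over the models, 0 to 3 in Cbfb::MYH11 and 0 to 3 in MLL::ENL tumors, the higher values without MLL::AF9 2. None of the alternatives run called a protein gene lower. The median log2 fold change stayed between 2.08 and 2.42 over the models under the settings that kept all libraries, and ranged without 1 library over 1.84 to 2.87 for the models, 1.56 to 2.91 for Cbfb::MYH11, 0.74 to 2.81 for MLL::AF9 and 1.75 to 3.32 for MLL::ENL. Between the models it changed sign, over -0.49 to 0.76 for MLL against Cbfb::MYH11 and -0.32 to 1.72 for MLL::ENL against MLL::AF9. For single protein genes against WT, 1 value changed sign, mt-Nd3 in MLL::AF9 tumors, which ranged from -0.48 (without MLL::AF9 2) to 1.02 without 1 library.

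The tumor minus WT difference of the mtDNA share was 3.89 to 5.09 percentage points without 1 library, 8.17 on TPM, 5.94 with the chromosome 1 copies, and 5.65 and 3.05 in the short and long fragment classes (exact p = 0.333 and 0.5). On TPM it was 8.77 in Cbfb::MYH11, 6.14 in MLL::AF9 tumors and 9.81 in MLL::ENL tumors. With 1 library left out the exact p cannot go below 0.0556 (7 against 2) or 0.222 (8 against 1). The MLL minus Cbfb::MYH11 difference turned to -0.796 on TPM and -0.03 on log2 percent, and ranged from -1.14 to 2.28 without 1 library (-0.314 without MLL::AF9 2, -0.403 without MLL::ENL NO). The MLL::ENL minus MLL::AF9 difference was 3.68 on TPM and ranged from -0.470, without MLL::ENL NO, to 4.16. The rRNA counts per 100 protein gene counts differed by -15.9 to -11.9 without 1 library.

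Of the 79 nuclear respiratory genes, 2 were lower over the models, but 1 with DESeq2 size factors or a fragment class term, 0 with library totals, 4 with the length offset, 9 with DESeq2 and 0 to 7 without 1 library. In MLL::AF9 tumors 6 became 21 with DESeq2, 0 with library totals or only the compared libraries, and 0 to 8 without 1 library. In MLL::ENL tumors 1 became 9 with DESeq2, 2 without the filter or with the length offset, 0 with library totals, and 0 to 2 without 1 library. In Cbfb::MYH11 tumors 0 became 1 with DESeq2 or only the compared libraries and 0 to 3 without 1 library. In MLL against Cbfb::MYH11 the count was 1 to 16 without 1 library. Of the RNA processing genes, the call in MLL::AF9 tumors became 0 with library totals, only the compared libraries, the length offset or the class term, and 0 to 1 without 1 library. The 10 lower in MLL against Cbfb::MYH11 became 3 with library totals, 5 without the filter and 2 to 10 without 1 library. The causes were not tested. No paired analysis was possible because each library is a separate mouse by its label and the labels give no pairs. The alternatives with copies, length offset, fragment class, robust estimation off and the nuclear counts were chosen after seeing the data. Both rRNA ratios were also chosen after seeing the data.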
